A study of Bos taurus with 6 samples.

Results

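The let-7 and miR-98 family was followed in cultured primary myoblasts of cattle, cells that can fuse to form muscle fibers, after resveratrol (RSV) treatment. The family was taken by name from the deposited miRNA list: each bta-let-7 followed by a letter from a to i, with or without an arm suffix, and bta-miR-98, which gave 10 of the 765 listed miRNAs. The cells came from the longissimus dorsi muscle of beef fetuses. In the RSV group, 3 cultures received 20 μM RSV dissolved in DMSO. In the control group, 3 cultures received DMSO alone. Both groups were kept in differentiation medium for 4 days. The paper describes 3 independent experiments for the cell collections of each group. Neither it nor the labels say whether the cultures of a group came from different fetuses.

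MiRNAs are short RNAs that guide Argonaute proteins to messenger RNAs, mostly through the seed, the stretch of bases near the 5′ end, and lower the output of the mRNAs they pair with. The let-7 family is among the most conserved miRNA families in animals. Its members and miR-98 share a seed and are encoded by several genes, and their mature forms differ from each other at few positions. LIN28 proteins block let-7 maturation in early development, and let-7 accumulates as cells differentiate and leave the cell cycle, where it is known to restrain growth genes such as HMGA2, MYC and the RAS genes. A hairpin precursor gives a 5p and a 3p strand, of which the 5p strand is the main mature form of let-7. The member bta-let-7a-3p comes from the other strand and does not carry the let-7 seed.

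For each miRNA the authors' table gives 1 mean normalized read count per group, that is, reads divided by a size factor that scales a library for its depth and averaged over the 3 libraries. These means carry no replicate error, so differences between them are described here as log2 ratios of the RSV mean over the DMSO mean, with no test. The 95% counting intervals given with them cover the error of counting reads alone and take the libraries of a group to be at the same level. The group means summed over all 765 miRNAs were 6637955 normalized reads in RSV and 7340618 in DMSO, a log2 ratio of −0.15. The size factors recovered from the table were 1.54, 1.29 and 0.935 for the RSV libraries against 0.922, 0.823 and 0.729 for the DMSO libraries, so the RSV libraries were on the whole deeper. The 6 miRNAs listed as muscle markers were all present, and together held 2.56% of miRNA reads in RSV and 2.50% in DMSO, with bta-miR-206 at 127629 and 139464 normalized reads. As deposited, 3 of these 6 had the higher mean in RSV, and with each mean taken as a share of all miRNA reads all 6 did. The median log2 ratio of the 403 miRNAs with a mean of at least 10 was 0.01 as deposited. Taking shares raises every log2 ratio by 0.15, so on that scale most of the 403 were higher in RSV, not the muscle markers in particular. Of the muscle markers, bta-miR-499 differed the most, at 89.8 to 162.3 normalized reads per recovered library in RSV and 41.2 to 52.1 in DMSO. Markers of other cells were low apart from bta-miR-143 and bta-miR-145 of fibroblasts and smooth muscle, which held 5.73% and 5.33%. Of the 5 blood markers looked for, bta-miR-144 was absent. The other 4 summed to 240.2 normalized reads in RSV and 94.9 in DMSO, with bta-miR-223 listed at 0 in RSV. Single libraries carried this sum. One RSV library, of size factor 1.29, had 462.9 normalized reads of bta-miR-451, against 66.8 and 81.3 in the other RSV libraries and 53.4 to 97.4 in the DMSO libraries, and without it the RSV mean of the 4 summed markers was 127.7. bta-miR-142-5p and bta-miR-142-3p were read mostly in another RSV library, of size factor 0.935, at 66.3 and 35.3 normalized reads. The 2 endothelial markers summed to 304.9 and 274.7, the 4 epithelial markers to 70.1 and 62.8, and the liver marker bta-miR-122 had 88.4 and 43.6 normalized reads. The bta-miR-122 reads in RSV came mostly from the library with a size factor of 1.54, at 200.5 normalized reads. The other RSV libraries had 26.3 and 38.5, both below the DMSO mean of 43.6, whose reads were not recovered by library. The part of these cells in the family's values was not tested.

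The family was abundant and very uneven. Its 10 members summed to 1029949 normalized reads in the RSV group and 1166120 in the DMSO group, which was 15.5% and 15.9% of all miRNA reads. bta-let-7i was the second most abundant miRNA of the table in both groups, after bta-miR-21-5p. It had a mean of 675310 normalized reads in RSV and 790579 in DMSO and alone held 65.6% of the family's reads in RSV and 67.8% in DMSO. bta-let-7f followed with 147195 and 155919 normalized reads, ranks 8 and 9 among all miRNAs, and bta-let-7g with 106447 and 107714. These 3 members made up most of the family in either group. bta-let-7a-5p came next with 53892 normalized reads in RSV and 59205 in DMSO. The other members with the let-7 seed lay within a narrower band. The means were 12896 and 14991 for bta-let-7b, 10253 and 11729 for bta-let-7c, and 9556 and 11632 for bta-let-7e. For bta-let-7d they were 7831 and 8304, and for bta-miR-98 they were 6328 and 5768, the only member with the higher mean in RSV on this scale. bta-let-7a-3p was far below the rest, with 240.7 and 278.4 normalized reads, and its 5p strand was 224 times as abundant in RSV and 213 times in DMSO. The order of the members by level was the same in both groups.

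**Figure D1:**
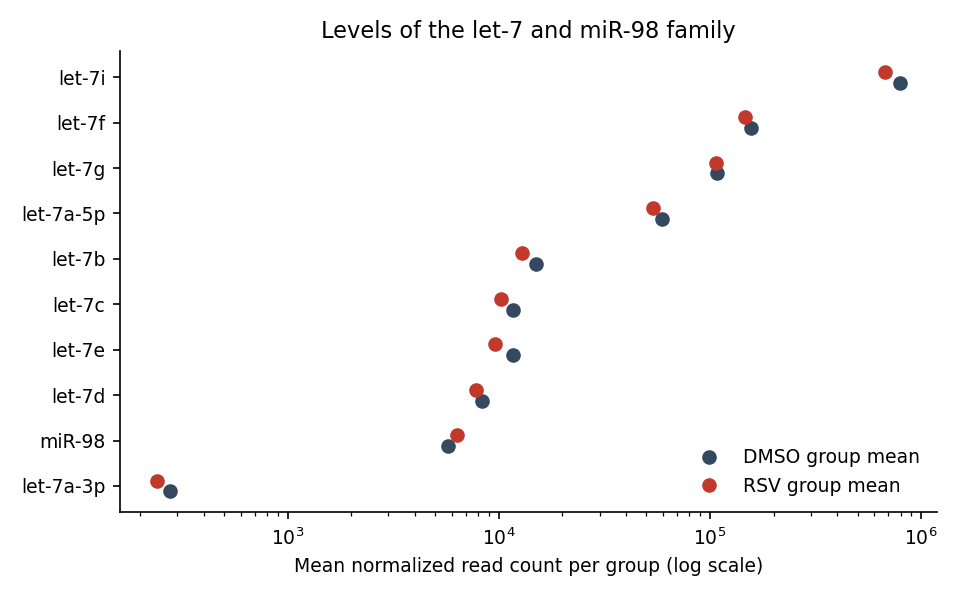
Mean normalized read count of each family member (x axis, log scale) in the DMSO group (dark) and the RSV group (red). Each point is the authors' mean of 3 libraries, with no replicate error available. let-7i stands at 675310 in RSV and 790579 in DMSO, and let-7a-3p at 240.7 and 278.4; miR-98 alone has its RSV point to the right, whereas with total scaling let-7a-5p, let-7d, let-7f and let-7g also would.

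On the scale of the deposited means, 9 of the 10 members had a lower mean in RSV and 1, bta-miR-98, a higher mean. The share of all miRNAs with a lower mean was not counted. Their median log2 ratio was 0.01 over the 403 with a mean of at least 10, and −0.03 over the 143 with at least 1000 in both groups. Within the family, the largest decrease was that of bta-let-7e, with a log2 ratio of −0.28 (counting interval −0.31 to −0.26). bta-let-7i followed with −0.23 (−0.23 to −0.22), bta-let-7b with −0.22 (−0.24 to −0.20) and bta-let-7a-3p with −0.21 (−0.35 to −0.07). The RSV mean was 17.8% below the DMSO mean for bta-let-7e and 14.6% below it for bta-let-7i. bta-let-7c had a log2 ratio of −0.19 and bta-let-7a-5p one of −0.14. The ratios of bta-let-7d (−0.08), bta-let-7f (−0.08) and bta-let-7g (−0.02) were nearer to 0. bta-miR-98 had a log2 ratio of 0.13 (0.10 to 0.16), a mean 9.72% higher in RSV. Summed over the 9 members with the let-7 seed, the log2 ratio was −0.18, and without bta-let-7i it was −0.08. As deposited, 84.7% of the family's difference of 136171 normalized reads between the groups came from bta-let-7i. In shares of all miRNA reads, bta-let-7i differed by −0.60 percentage points and the other 9 members together by 0.23 points.

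These signs depended on the scaling. When each mean was taken as a share of all miRNA reads of its group (total scaling), every log2 ratio rose by 0.15, 5 members lay below 0 and 5 above it. The miRNAs outside the family were shifted by the same amount. bta-let-7a-5p then had a log2 ratio of 0.01, bta-let-7d and bta-let-7f 0.06 each, and bta-let-7g 0.13. bta-let-7e stayed below 0 at −0.14, as did bta-let-7i at −0.08, bta-let-7b at −0.07, bta-let-7a-3p at −0.06 and bta-let-7c at −0.05. bta-miR-98 was at 0.28. Of the 6 scalings tried beside the deposited one, none turned the sign of bta-miR-98 or of these 5 members, while the signs of bta-let-7a-5p, bta-let-7d, bta-let-7f and bta-let-7g turned under at least 1. The family sum had a log2 ratio of −0.03 with total scaling, against −0.18 as deposited. The share of the family in all miRNA reads differed by −0.37 percentage points, from 15.9% in DMSO to 15.5% in RSV.

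**Figure D2:**
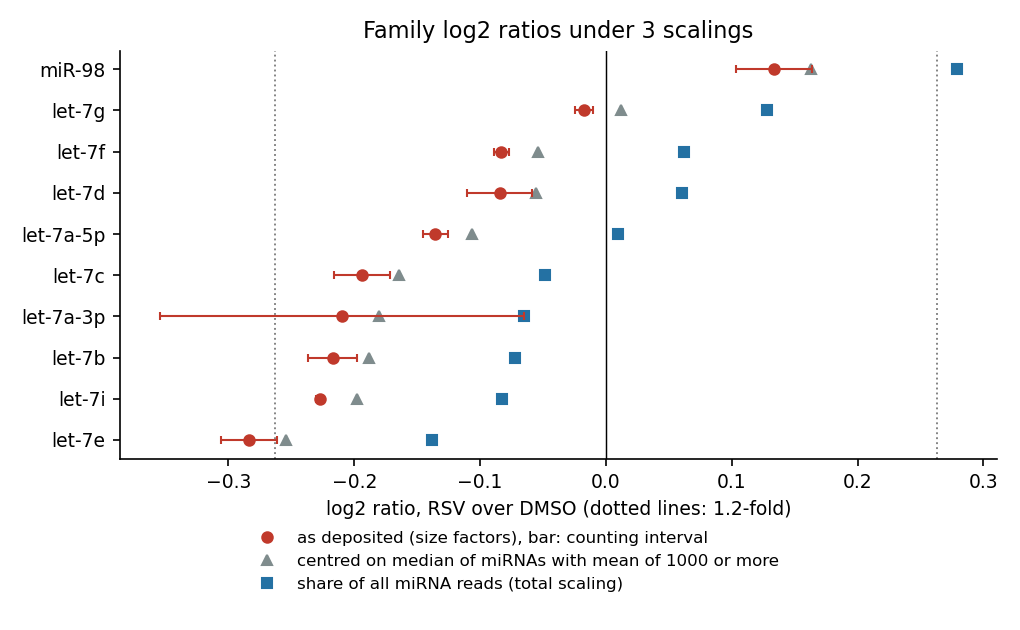
log2 ratio of the RSV over the DMSO mean (x axis) for each member, as deposited (red circles, bars are 95% counting intervals), centred on the median of miRNAs with a mean of 1000 or more (grey triangles), and as a share of all miRNA reads (blue squares); dotted lines mark 1.2-fold. let-7e, let-7i, let-7b, let-7a-3p and let-7c lie left of 0 and miR-98 right of 0 in all 3, whereas let-7a-5p, let-7d and let-7f cross 0 with total scaling, and let-7g crosses it with both other scalings.

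The differences between members do not depend on the scaling, since a scaling moves all of them alike. The gap between bta-miR-98 and bta-let-7e was 0.42 on the log2 scale (counting error ± 0.04). In levels, bta-let-7e was 2.02 times as abundant as bta-miR-98 in DMSO and 1.51 times in RSV. bta-let-7g and bta-let-7i differed by 0.21 (± 0.01) in their log2 ratios, and bta-let-7i was 7.34 times as abundant as bta-let-7g in DMSO and 6.34 times in RSV. Within the family, bta-let-7i thus took a share that was lower by 2.23 percentage points in RSV, while the share of bta-let-7g was higher by 1.1 points and that of bta-let-7f by 0.92 points. The log2 ratios of the 5p and 3p strands of let-7a differed by 0.07, within the counting error of ± 0.14. Whether the other gaps exceed the spread between cultures could not be tested, because the members' single-library reads could not be recovered.

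A fold of 1.2 in either direction was used to set the family beside all miRNAs. It was chosen with earlier results of these data known, which gave small changes for this family. Of the 403 miRNAs that reached a mean of 10 normalized reads in 1 or both groups, 16.4% were lower in RSV by this fold and 19.1% were higher. In the family, 1 of 10 members (bta-let-7e) was lower by this fold and 0 were higher. With total scaling, 7.44% of all miRNAs were lower and 33.5% higher, that is 30 against 135 miRNAs in place of 66 against 77, and in the family 0 were lower and 1 (bta-miR-98, at 0.28) was higher. The median log2 ratio was −0.16 over the 10 members and 0.01 over the 403 miRNAs. Since the family is abundant, it was also set beside the 143 miRNAs with at least 1000 normalized reads in both groups, which hold 9 of its members. Their median log2 ratio was −0.03, and the middle 80% lay between −0.29 and 0.22. All 9 family members fell within this range, 7 of them below the median. Of the 143 miRNAs, 14% were lower by the 1.2-fold rule and 7.69% higher. Among them, 17 had a lower log2 ratio than bta-let-7e and 31 a higher one than bta-miR-98.

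**Figure D3:**
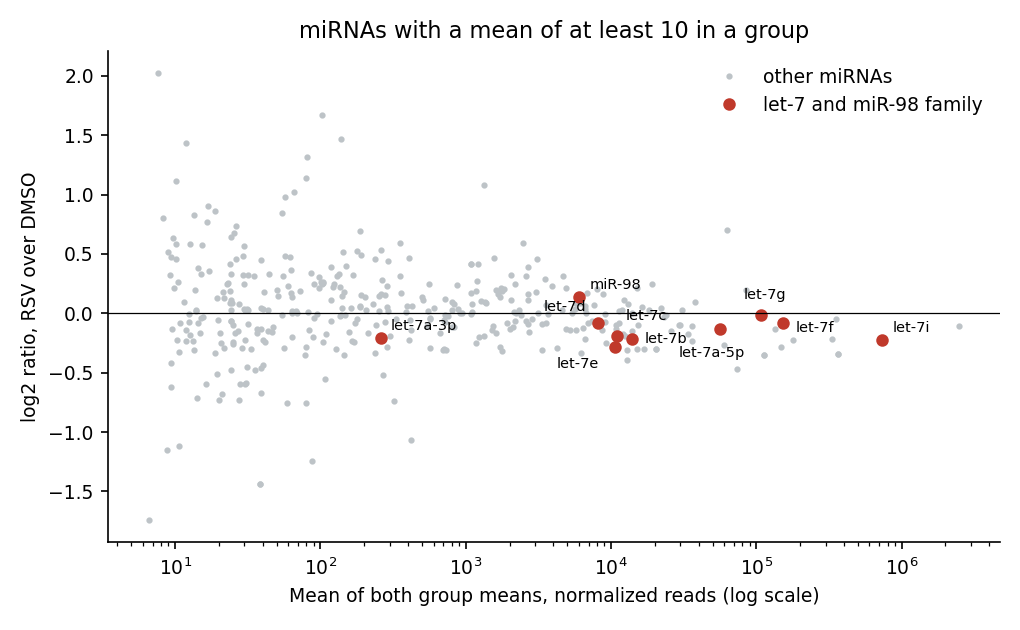
log2 ratio of the RSV over the DMSO mean as deposited (y axis) against the mean of both group means (x axis, log scale) for the 403 miRNAs with a mean of at least 10 in a group. Family members (red, named) lie between −0.28 and 0.13, with let-7i at −0.23 the most abundant of them; total scaling would move all points up by 0.15, which puts let-7a-5p, let-7d, let-7f and let-7g above 0.

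As deposited, the DMSO sum over all miRNAs exceeded the RSV sum by 702663 normalized reads, of which the family made up 19.4%. This was not far from the family's share of all miRNA reads, 15.5% in RSV and 15.9% in DMSO. With total scaling the 2 sums are equal by construction. Near-identical rows, described below, were each counted in these sums. bta-miR-21-5p, the most abundant miRNA, had a log2 ratio of −0.11 as deposited and held 36.1% of miRNA reads in RSV and 35.1% in DMSO. bta-miR-199a-3p, which by the mean of both groups came after bta-let-7i, had a log2 ratio of −0.34.

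The family is encoded by 12 genes in the RefSeq gene table of cattle, and 10 of them lie within 10 kb of another miRNA gene. MIRLET7A-1, MIRLET7F-1 and MIRLET7D neighbour each other, MIRLET7A-3 lies near MIRLET7B with MIR2443 between them, MIR98 lies next to MIRLET7F-2 inside HUWE1, MIRLET7A-2 next to MIR100, MIRLET7C next to MIR99A, and MIRLET7E between MIR99B and MIR125A. MIRLET7G, which overlaps WDR82, and MIRLET7I have no such neighbour. MiRNAs of neighbouring genes are often cut from 1 transcript. bta-let-7a-5p comes from 3 genes and bta-let-7f from 2, so their values cannot be assigned to a single locus.

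bta-miR-3596, which has the values of bta-let-7b, and bta-let-7a-3p were left out of the comparison of neighbours. Across 12 pairs of mature miRNAs with neighbouring genes, 5 pairs differed in their log2 ratios by less than the counting error and 7 by more. Several pairs share a member. The same counts were not made for pairs without neighbouring genes, so closeness cannot be called a trait of neighbours. For example, bta-let-7b (−0.22) and bta-let-7i (−0.23), whose genes are not neighbours, also had close log2 ratios. bta-let-7f was 18.8 times as abundant as bta-let-7d in RSV and 18.8 times in DMSO, a difference in log2 ratio of 0.0015 (± 0.027). bta-miR-99a-5p was 3.11 times as abundant as bta-let-7c in RSV and 3.08 times in DMSO, a difference of 0.02 (± 0.03). Both pairs thus kept nearly the same proportion in the 2 groups. bta-let-7e and bta-miR-125a, by contrast, differed by 0.28 (± 0.03), the largest of the 7 gaps beyond the counting error. bta-miR-125a had 9022 normalized reads in RSV and 9048 in DMSO, where bta-let-7e had 9556 and 11632, and bta-miR-99b of the same group of genes had 14721 and 15764. bta-miR-98 and bta-let-7f differed by 0.22 (± 0.03), and bta-let-7a-5p and bta-miR-100 by 0.13 (± 0.01), the latter with 54551 normalized reads in RSV and 65468 in DMSO. bta-let-7a-5p and bta-let-7b differed by 0.08 (± 0.02). The sparsely read neighbours gave no usable gap, since bta-miR-2443 differed from bta-let-7a-5p by 0.37 (± 0.53) and from bta-let-7b by 0.29 (± 0.53), and bta-miR-99a-3p from bta-let-7c by 0.09 (± 0.26). The replicate spread of these differences is unknown.

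**Figure D4:**
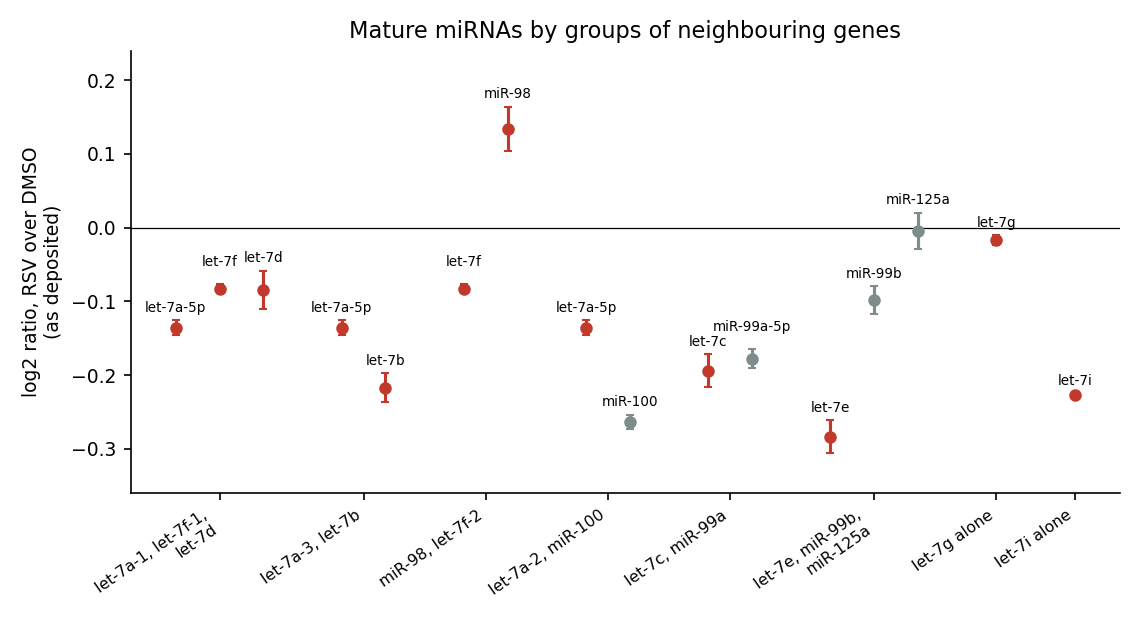
log2 ratio of the RSV over the DMSO mean as deposited (y axis) for mature miRNAs grouped by neighbouring genes (x axis); family members are red, other miRNAs grey, and bars are 95% counting intervals. let-7f and let-7d, and let-7c and miR-99a-5p, stand at nearly the same height, whereas let-7e lies 0.28 below miR-125a; total scaling would raise all points by 0.15 and leave these gaps unchanged.

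The values of bta-let-7b were shared with another miRNA. bta-miR-3596 has the same mean in both groups to every printed digit, 12896.17304 in RSV and 14991.22407 in DMSO, and its gene MIR3596 overlaps MIRLET7B in the RefSeq gene table. In all, 5 such pairs, with means within 0.1% of each other in both groups, were found among the 240 miRNAs that reached 100 normalized reads in both groups, and 2 of them were identical as printed. Whether the same reads were counted in both rows was not tested. For the members of the let-7 family, whose mature forms differ at few positions, how reads that match several members were shared out is not given in the sources used here. Sums over the family do not depend on it unless a read was counted for more than 1 member.

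For bta-let-7a-3p alone the reads of single libraries were recovered, as the only combination of whole reads that gave each group mean, where 0.17 further combinations in RSV and 0.073 in DMSO would be met by chance. In RSV they were 389, 287 and 232 reads in the libraries with size factors of 1.54, 1.29 and 0.935, or 252.4, 221.8 and 248.0 normalized reads. In DMSO they were 311, 209 and 178 reads in the libraries with size factors of 0.922, 0.823 and 0.729, or 337.3, 253.8 and 244.2 normalized reads. The groups overlapped, since 2 RSV libraries lay above the lowest DMSO library, and 1 DMSO library stood well above the other 5. The means were 240.7 ± 16.5 (SD, n = 3) in RSV and 278.4 ± 51.2 (SD, n = 3) in DMSO. limma voom, which fits log2 reads per miRNA with a weight for their precision, was applied to all 206 miRNAs whose reads were recovered and averaged 10 or more, and gave bta-let-7a-3p a log2 fold change of −0.20 (standard error 0.13, Benjamini-Hochberg adjusted p = 0.365). A two-sided exact permutation test gave p = 0.40, where the smallest p that 3 libraries against 3 allow is 0.10. Without the DMSO library of 337.3 normalized reads the log2 fold change from limma voom was −0.05 (adjusted p = 0.847). Of the 206 miRNAs, limma voom called 5.34% higher and 3.4% lower in RSV at an adjusted p under 0.05, that is 11 and 7, and 54 had an unadjusted p under 0.05. A change of bta-let-7a-3p was therefore not detected with these libraries, which does not show that there was none.

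**Figure D5:**
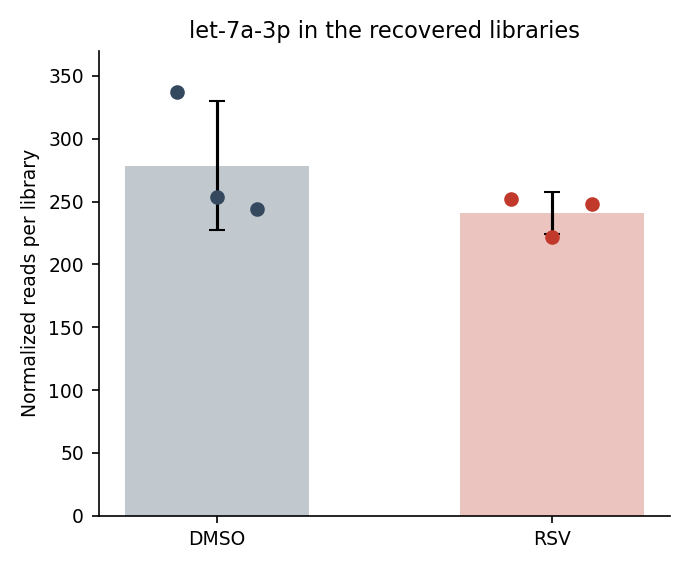
Normalized reads of let-7a-3p per recovered library (y axis) in the DMSO and RSV groups; points are libraries, bars the mean of 3 and error bars the SD. One DMSO library at 337.3 stands above the other 5, which lie between 221.8 and 253.8.

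The spread between libraries could be read from miRNAs of lower level. Among 56 miRNAs with recovered reads and at least 100 normalized reads in both groups, the median SD of log2 normalized reads within a group, pooled over both groups, was 0.13, and the standard error of a difference of 2 means of 3 libraries at this spread was 0.11. As deposited, the log2 ratios of bta-let-7e, bta-let-7b and bta-let-7i were at 2 times this standard error or more, and those of bta-let-7d, bta-let-7f and bta-let-7g were below it. bta-let-7b lay just at that line. As deposited, the middle 80% of the 143 miRNAs with at least 1000 normalized reads in both groups lay between −0.29 and 0.22. Of these 143 miRNAs, 14% were lower and 7.69% higher by 1.2-fold, a log2 ratio of 0.26 and so beyond that line. Ratios near or past that line were thus not particular to the family. The share of all miRNAs past 1 or 2 standard errors was not counted. With total scaling bta-let-7e, bta-let-7g and bta-miR-98 exceeded 1 standard error, and bta-miR-98 alone 2. On that scale 7.44% of the 403 miRNAs with a mean of at least 10 were lower by 1.2-fold and 33.5% higher. The spread differed among the 56 miRNAs, and at its 90th percentile, a standard error of 0.17, no member reached 2 times the standard error with either scaling. These miRNAs are less abundant than the family and carry more counting error, so their spread is a guide and not a test of the members.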

How the data were processed

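Myoblast cultures with RSV (3 samples) or DMSO (3 samples) were sequenced for mRNA and miRNA, and the treatment label of each sample gave its group. The authors mapped miRNA reads to bosTau8 with Bowtie 0.12.9, named known miRNAs by miRBase, and compared the groups with DESeq. The deposited miRNA block holds, per miRNA, the mean normalized read count of each group, which is the only value used. It also holds the authors' log2 fold changes, p-values and adjusted p-values, which were not used. The mRNA block of 26332 identifiers, most of whose values have lost their decimal point, was not used: the RefSeq gene table (ARS-UCD2.0) matched 0 identifiers, so let-7 targets and LIN28 genes were not analysed here. That table served for gene names and neighbours alone.

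Log2 ratios of group means were computed in Python 3.11.15 (numpy 2.4.6, scipy 1.17.1, pandas 2.3.3, numba 0.67.0, matplotlib 3.10.9). Size factors and whole reads were recovered from the means by searching for whole reads in 3 libraries, for means of up to 400 normalized reads. This gave 580 of 583 miRNAs, 1 of them a family member, as the other 9 lie above the limit. In simulated means, all 1164 unique results of 1172 were right. Recovered libraries carry no sample name. They entered limma voom (limma 3.58.1 in R 4.3.3) with a minimum mean of 10 and Benjamini-Hochberg adjustment. In simulated reads of 206 miRNAs, it recovered 50 of 60 that were given a log2 change of 1 and 2 of 60 given 0.5. The simulated spread between libraries was a fixed value, larger than the median spread given above. Some miRNAs called in the real libraries had log2 fold changes near 0.5 in size, so the simulation does not set the smallest change that can be detected. The permutation test set the difference between the groups against the differences from every split of the libraries into 3 and 3. The p-values of limma voom set it against the spread between the 3 libraries of each group, drawn towards the spread of all miRNAs fitted. Whether this spread includes differences between fetuses is not known. All 10 members are named. Other miRNAs named are those of neighbouring genes, the 3 most abundant by the mean of both groups, cell type markers and those found with near-identical rows after the values were seen. The members, the lists and the 1.2-fold rule were chosen with earlier results of these data known. Mature sequences were not used here.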

Additional observations from a re-analysis of the deposited data

How the results depend on the processing

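The table gives 1 mean per group, so 9 of 10 members have no replicate error, and depth limits only bta-let-7a-3p. The family sum (−0.18) was −0.034 with total scaling, −0.0403 with total scaling over miRNAs outside the family, and −0.19 and −0.15 when centred on the median of miRNAs with a mean of at least 10 and 1000. It was −0.17 with the trimmed mean of M-values and −0.049 with total scaling without repeated rows, both chosen after seeing the data, and −0.0825 without bta-let-7i. The family's share differed by −0.37 percentage points, by −0.21 without bta-miR-21-5p, by −0.52 over miRNAs outside the family, and by −0.58 without repeated rows. Members lower by 1.2-fold numbered 1 as deposited, and 0 with total scaling of any kind or centred on miRNAs with a mean of at least 1000. Of the 403 miRNAs, 16.4% were lower as deposited, 7.44% to 7.69% with total scaling and 13.9% with that centring. As deposited, 5 members were lower by 1.1-fold and 0 by 1.5-fold. The shares of all miRNAs at these 2 folds were not counted, so the 5 cannot be read as a trait of the family. Members higher numbered 0, and 1 with total scaling of any kind, where 32.8% to 33.5% of the 403 miRNAs were higher by 1.2-fold. For bta-let-7a-3p the log2 fold change from limma voom ranged from −0.29 to −0.05 with 1 library omitted at a time (adjusted p between 0.312 and 0.847), was −0.22 without a minimum mean and −0.28 with reads scaled to their own totals. The calls of limma voom numbered 18, and between 3 and 30 with each library left out. They fell to 3, 3 and 4 without the DMSO libraries with size factors of 0.922, 0.823 and 0.729. No paired analysis was possible because the group means and the recovered libraries carry no replicate number.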

Other observations

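The other pairs of near-identical rows were bta-miR-22-3p with bta-miR-3600 (5891 normalized reads in RSV and 5542 in DMSO for either), bta-miR-199a-3p with bta-miR-3604 (321333 and 321286 in RSV), bta-miR-26a with bta-miR-26c (99711 and 99699 in RSV) and bta-miR-152 with bta-miR-2957 (18143 and 18142 in RSV). When the second row of each pair, bta-miR-3596 included, was left out, the family held 16.7% of miRNA reads in RSV and 17.2% in DMSO. bta-miR-2443, whose gene lies between MIRLET7A-3 and MIRLET7B, was read at 15.9 normalized reads in RSV and 22.7 in DMSO, far below its neighbours.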
